A study of Mus musculus with 12 samples.

Results

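Liver gene expression was compared between mice fed DJ526, a resveratrol-enriched rice, and mice fed Dongjin (DJ), the rice from which it was made. The comparison takes the 3 arrays labelled DJ526 and the 3 labelled Dongjin rice, 6 of the 12 arrays of the series, chosen by the titles of the samples. DJ526 is a single transgenic line, which carries a stilbene synthase gene of peanut in the Dongjin background, and in both diets the rice took the place of the corn starch and sucrose of a normal formula diet. The other 6 arrays are of mice on the starch and sucrose diet (Ctrl) or on that diet with resveratrol (RS). All animals were female C57BL/6N mice, bought at 6 weeks of age and put on the diets after 2 weeks of acclimation, the livers were taken 6 months later, and each array holds the RNA of 1 mouse. The 2 rice diets differ in the transferred gene and in whatever else differs between the grains, so that resveratrol and other properties of the transgenic rice cannot be told apart. Whole cages were given to a diet, and the labels do not give the cage of a mouse.

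The liver clears foreign compounds through cytochromes P450 (Cyp enzymes), glutathione transferases and UDP-glucuronosyltransferases, makes bile acids from cholesterol and secretes most of the plasma proteins. In mice it also secretes the major urinary proteins (Mup), small carriers of pheromones encoded by a cluster of near-identical genes. Many of its genes follow the circadian clock, in which the activators Arntl and Clock drive their own repressors of the Per and Cry families. Resveratrol is a plant stilbene that has been studied mostly in connection with sirtuins, the NAD-dependent deacylases, and with the energy sensor AMPK. All of these groups were read as gene lists, which are described below by their counts and medians.

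Levels are log2 processed signals from which log2 of the 75th percentile of all probes on that array was subtracted, so that 0 is the 75th percentile, and a log2 difference is always the DJ526 mean minus the DJ mean. A gene was read by its brightest probe, and a probe is called well above background where the scanner software flags it so. Of 39429 probes, 27959 were well above background on all 6 arrays, among them the brightest probes of 15875 of 20887 genes. The 75th percentile of the 6 arrays lay between 953 and 1167 intensity units. DJ replicate 1 lay on slide 1, DJ replicates 2 and 3 on slide 2 and the 3 DJ526 arrays on slide 3, so that no slide held both diets and no value within a slide can be given. All 14 hepatocyte markers were well above background on the 6 arrays, and their summed linear signal was 4021 to 4289 in DJ and 3513 to 3854 in DJ526, in units of the 75th percentile. The sum over 18 markers of exocrine pancreas, a neighbour of the liver, was 3.38 to 4.67 and 4.18 to 5.16. The number of arrays, 3 a diet, limits the precision of each value below.

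Across all probes, limma with Benjamini-Hochberg adjustment called 4 lower and 0 higher in DJ526 (0.0101% and 0.0% of the 39429 probes), where 1650 and 2217 had an unadjusted p under 0.05. The labels do not pair mice across diets, and this fit used no pairs. Same-numbered mice deviated together only weakly (correlations of 0.163 to 0.291). With the replicate number as a block the test called 0 probes (smallest adjusted p = 0.0992, 3523 at an unadjusted p under 0.05). Leaving out 1 mouse gave 0 calls without Ctrl replicate 2 or 3, DJ replicate 2 or 3 or DJ526 replicate 1 or 2, 1 without Ctrl replicate 1 or DJ526 replicate 3, 2 without RS replicate 2, 7 without RS replicate 1, 23 without DJ replicate 1 and 107 without RS replicate 3. Most of what follows therefore describes genes by whether the 3 DJ526 values lay wholly above or wholly below the 3 DJ values, which is a description, since with 3 mice a diet an exact two-sided permutation test reaches no smaller p than 0.1. This was so for 4778 probes with DJ526 higher (12.1%) and 2478 with DJ526 lower (6.28%). The split depended on the scaling: it was 3760 higher and 3316 lower after quantile normalization, 3466 and 3859 after cyclic loess, 7088 and 1414 in the deposited table, 1797 and 5779 with the median pixel after normexp, and 3982 and 3905 when probes were centred by their place on the array. Over the 20887 genes with a probe, 2312 did not overlap with DJ526 higher (11.1%) and 1379 with DJ526 lower (6.6%), and the median log2 difference was 0.018. Among the 15875 genes well above background on all 6 arrays the shares were 10.9% and 7.5%. These shares are the background for the lists below.

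Among the cytochromes P450 named here whose groups did not overlap, those farthest below DJ in DJ526, apart from Cyp8b1, were of the Cyp3a family, the enzymes that oxidize steroids, bile acids and many drugs. Cyp3a41b had the largest difference, with levels of 3.40, 5.09 and 4.50 in the 3 DJ mice and 2.99, 1.88 and 1.35 in the 3 DJ526 mice (log2 difference -2.26, standard error 0.565, limma adjusted p = 0.247). Every DJ526 mouse was below every DJ mouse, although DJ526 replicate 1 and DJ replicate 1 were less than 0.5 apart. Cyp3a16 had 4.23, 5.55 and 4.99 in DJ and 3.95, 3.20 and 2.98 in DJ526 (log2 difference -1.55, standard error 0.411, limma adjusted p = 0.28). Cyp3a11 had 6.42, 7.06 and 6.81 and 6.29, 5.78 and 5.59 (log2 difference -0.88, standard error 0.262, limma adjusted p = 0.35), and its second probe differed by -1.34. For all 3 genes the groups were separate and DJ526 replicate 1 was the highest of the DJ526 mice. Cyp3a59 had 3.93, 4.70 and 4.19 in DJ and 3.67, 3.41 and 3.57 in DJ526 (log2 difference -0.72), but its dimmer probe differed by 0.24, with overlap. Cyp3a44 overlapped (-1.04), and Cyp3a13 and Cyp3a25 differed by 0.0095 and 0.16.

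In RefSeq (GRCm38.p6) the genes Cyp3a16, Cyp3a41b, Cyp3a44, Cyp3a11, Cyp3a25 and Cyp3a59 lie in 1 cluster on chromosome 5, from 145436309 (the start of Cyp3a16) to 146114978 (the end of Cyp3a59), whereas Cyp3a13 lies apart at 137892933 to 137925610. Genes of the cluster are similar in sequence, Cyp3a41a and Cyp3a41b nearly identical, and probes may read several of them. In the other diets Cyp3a11 had 6.84, 6.73 and 6.50 in the Ctrl mice and 7.22, 6.49 and 6.19 in the RS mice, and RS replicate 3, the RS array on the slide of the DJ526 arrays, lay below the highest DJ526 value. Cyp3a16 in RS replicate 3 was 4.22, above every DJ526 mouse, where the other RS mice had 5.48 and 5.13. Of the Cyp2 and Cyp3 list as a whole, 0 of 34 measured members did not overlap with DJ526 higher and 5 with DJ526 lower, and the median log2 difference was -0.060. Beside the Cyp3a genes, the members with no overlap were Cyp2e1, which oxidizes ethanol and small solvents (-0.31), and Cyp2d10 (-0.21). Cyp2b10, a target of the xenobiotic receptor CAR, differed by -0.059.

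Major urinary protein genes had the lowest median of all lists, -1.15, and 7 of the 10 measured members did not overlap, all with DJ526 lower. This family was singled out after its values were seen, except Mup20, which a list of growth hormone targets held, and its members are so alike that the probes are not independent readings. Mup19 had levels of 8.21, 8.18 and 8.77 in DJ and 7.92, 6.48 and 7.02 in DJ526 (log2 difference -1.24, standard error 0.316, limma adjusted p = 0.254). Mup20, which encodes the pheromone darcin, had 6.02, 6.00 and 7.04 and 5.70, 4.23 and 4.74 (log2 difference -1.47, standard error 0.373, limma adjusted p = 0.255). In both, DJ replicate 3 was the highest of the 6 mice and DJ526 replicate 2 the lowest, and DJ526 replicate 1 lay within 0.5 of a DJ mouse. Mup5 differed by -1.58, Mup2 by -1.49, Mup17 by -1.16, Mup18 by -1.14 and Mup4 by -1.01. Mup3, Mup21 and Mup6 overlapped, with differences of -0.40, -0.34 and -0.31, and so did the dimmer probe of Mup20 (-0.33). Summed over the 10 probes, the linear signal in units of the 75th percentile was 1019 to 1578 in DJ and 384 to 892 in DJ526. In the other diets, the Ctrl mice had 5.37, 6.03 and 5.92 for Mup20 and the RS mice 6.28, 6.01 and 5.67, so that DJ526 replicates 2 and 3 lay below every mouse of the other 3 diets.

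Growth hormone acts on the liver in a sex-specific rhythm and sets the level of Mup and of several Cyp genes. Of the list of its axis and of female-biased genes, 2 of 26 measured members did not overlap with DJ526 higher and 4 with DJ526 lower, and the median log2 difference was -0.10. Slco1a1, a male-biased transporter of organic anions, had -4.98, -4.39 and -2.38 in DJ and -5.44, -5.20 and -6.19 in DJ526 (log2 difference -1.69, standard error 0.676, limma adjusted p = 0.473). DJ replicate 3 lay more than 2 log2 units above DJ replicate 1, the RS mice had -5.28, -5.42 and -3.95, and without DJ replicate 3 the difference was -0.92. The receptor Ghr and its product Igf1 differed by -0.090 and -0.10, with overlap. The dimmer probes of Igf1 differed by -0.013, 0.10 and 0.16, the last without overlap. Cyp4a12a, a male-biased fatty acid hydroxylase, was higher in DJ526 (0.51), so that the members of the list lay on both sides.

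Cyp8b1, the sterol hydroxylase that is needed for cholic acid and so sets the ratio of the primary bile acids, was the lowest of the bile acid genes in DJ526. The DJ mice had -0.13, 0.40 and 1.11 and the DJ526 mice -1.35, -0.61 and -3.91 (log2 difference -2.42, standard error 0.667, limma adjusted p = 0.308). The groups did not overlap, but DJ526 replicate 3 lay more than 2 log2 units below the other DJ526 mice, and DJ526 replicate 2 within 0.5 of DJ replicate 1. Without DJ526 replicate 3 the difference was -1.44. The Ctrl and RS mice lay at 0.25 to 1.03 and -0.14 to 0.30, all above the 3 DJ526 mice. The other steps of the synthesis showed no such distance. Cyp7a1, the rate-limiting enzyme, had 1.42, 0.093 and -0.53 in DJ and 0.32, 0.57 and 0.69 in DJ526, Cyp7b1 of the acidic pathway differed by -0.26 and Cyp27a1 by 0.19, each with overlap. Of the whole list, 2 of 22 measured members did not overlap with DJ526 higher and 2 with DJ526 lower, and the median log2 difference was 0.049. The 2 higher members were the uptake transporter Slco1a4 (0.38) and Abcg8 (0.25), which exports sterols into bile.

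**Figure D1:**
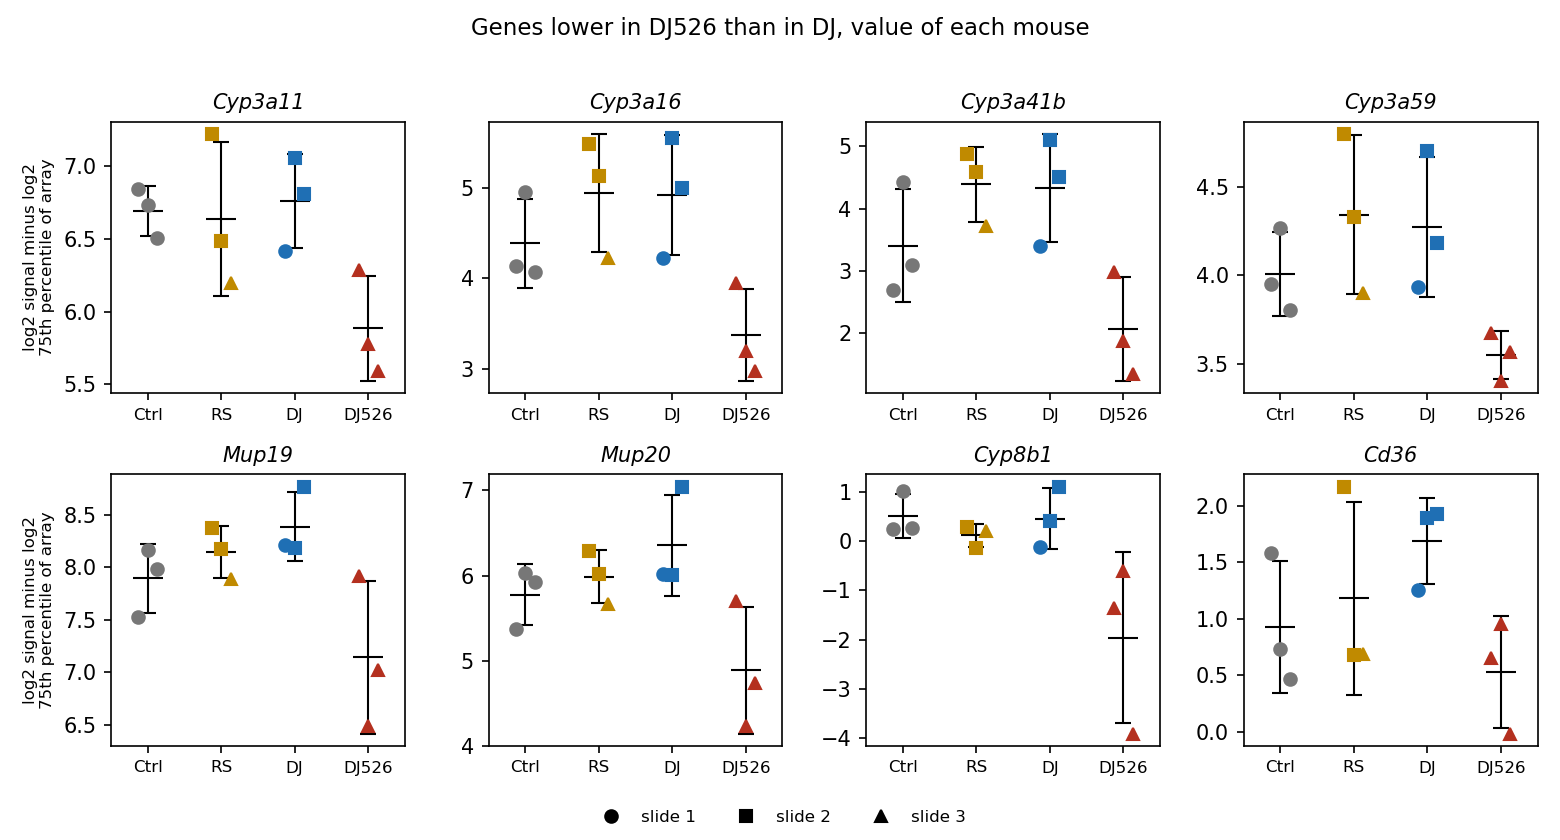
Level of 8 genes in each of the 12 mice (log2 processed signal, with 0 at the 75th percentile of an array). Points are mice, their shape gives the slide, and the bar and whiskers are the mean and SD of 3 mice. In all 8 panels the 3 DJ526 points lie below the 3 DJ points, and for Cyp3a11, Mup19, Mup20 and Cd36 they overlap with the RS points.

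Genes of lipid droplets and targets of the adipogenic receptor PPAR-gamma also had a median below 0. Of this list, 0 of 16 measured members did not overlap with DJ526 higher and 5 with DJ526 lower, and the median log2 difference was -0.24. Cd36, which takes up fatty acids, had 1.25, 1.89 and 1.93 in DJ and 0.66, 0.95 and -0.016 in DJ526 (log2 difference -1.16, standard error 0.425, limma adjusted p = 0.446). Mogat1, a monoacylglycerol acyltransferase, had -3.50, -2.64 and -1.74 and -3.89, -3.62 and -4.15 (log2 difference -1.26), and Fitm1, which helps to form droplets, had -0.80, -1.02 and -0.35 and -1.57, -1.27 and -2.87 (-1.18). The separation was narrow, since for Mogat1 and Fitm1 the lowest DJ and the highest DJ526 mouse were less than 0.5 apart, and the difference was -0.82 for Mogat1 without DJ replicate 3 and -0.70 for Fitm1 without DJ526 replicate 3. The droplet coat gene Plin4 differed by -0.34 without overlap, and Pparg itself by -0.090 with overlap. The fifth member was Cfd, an adipocyte gene, at -4.74, -1.11 and -5.25 in DJ and -6.56, -6.43 and -7.90 in DJ526, where 2 of the 3 arrays had it well above background.

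Of the 10 adipocyte markers, 7 were below 0, and Car3, Adipoq and Cfd did not overlap with DJ526 lower, whereas Lep, the hormone leptin, did not overlap with DJ526 higher (0.68) and was well above background on all 6 arrays. The summed linear signal of the 10 markers was 117 to 139.7 in DJ and 71.8 to 101 in DJ526 (units of the 75th percentile), nearly all of it from Car3, which hepatocytes also express (-0.56). Adipoq, the defining marker, was -5.77, -3.49 and -5.64 in DJ and -6.49, -6.51 and -6.90 in DJ526, and 6 of the 10 markers were well above background on all 6 arrays. Cfd and Adipoq were also high in Ctrl replicate 1 (-0.16 and -2.88) and RS replicate 1 (-1.22 and -3.03). Without DJ replicate 2 the differences of Cfd and Adipoq were -1.97 and -0.93. The part of fat cells in the lipid droplet list was not tested. The median of that list became 0.084 with the slide as a block.

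Genes of the circadian clock had a median log2 difference of 0.30, which stayed between 0.23 and 0.36 under every scaling tried, and 5 of 21 members did not overlap, all with DJ526 higher, against a background of 11.1%. Per2, a core repressor of the clock, had -1.41, -1.60 and -1.67 in DJ and -1.19, -0.49 and -0.63 in DJ526 (log2 difference 0.79, standard error 0.167, limma adjusted p = 0.179). The Ctrl mice had -0.56, -0.64 and -0.41 and the RS mice -0.69, -0.53 and -0.37, so that the DJ mice were the lowest of the 4 diets and DJ526 replicates 2 and 3 lay among Ctrl and RS. Wee1, a cell cycle kinase under clock control, had -0.59, -1.85 and -1.03 and -0.53, -0.094 and 0.024 (log2 difference 0.96, limma adjusted p = 0.405), with DJ replicate 1 close to DJ526 replicate 1, and without DJ replicate 2 the difference was 0.61. Per3 had -3.03, -3.03 and -2.81 and -2.73, -2.18 and -2.02 (0.65), and the repressor Bhlhe41 had -5.98, -6.71 and -6.47 and -5.62, -5.62 and -5.61 (0.77). Tef, a transcription factor of the clock output, differed by 0.40. Bhlhe41 is dim, and its difference changed sign with the median pixel after normexp.

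The members with the steepest daily rhythms varied widely within a diet. The activator Arntl had -0.35 and -2.40 in the 2 DJ mice with a value and -0.81, -1.37 and -3.18 in DJ526, and its repressor Nr1d1 had -3.13, -1.30 and -0.51 and -1.82, -1.84 and -0.59. Dbp, an output factor with a steep daily rhythm, had 3.40, 3.76 and 5.27 in DJ, 4.02, 4.50 and 5.51 in DJ526 and 5.32, 2.32 and 4.63 in Ctrl. Dbp was high where Arntl was low in Ctrl (replicates 1 and 3) and low where it was high (replicate 2). Usp2, a clock-controlled protease, had 1.92, 0.89 and 1.48 and 1.81, 2.79 and 2.79. Per1 differed by 0.087, Cry1 by 0.41, Ciart by 0.40, Nr1d2 by 0.30 and Npas2 by -0.18, all with overlap. The mice lived in a room with the lights on from the evening, and the hour at which each liver was taken is not given in the sources used here.

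The windows of 250 bases before the start of Bhlhe41 and Per3, which RefSeq gives on GRCm38.p6, are shown because they hold the E-box (CACGTG, bound by Arntl and Clock) and the D-box (TTATGTAA, bound by Dbp and Tef), the 2 elements through which the clock acts on its targets. Both strands were searched, and capitals mark the match. Of all 32851 windows of this length, 6.02% hold the E-box and 0.819% the D-box, and of the 17 clock genes with a window 5 and 1 hold them. A clock gene was counted where any of its windows held the element, so the counts of genes and the shares of windows are unlike measures. The Bhlhe41 window is chr6:145865421-145865670 (minus strand) and the Per3 window chr4:151044666-151044915 (minus strand).
Bhlhe41: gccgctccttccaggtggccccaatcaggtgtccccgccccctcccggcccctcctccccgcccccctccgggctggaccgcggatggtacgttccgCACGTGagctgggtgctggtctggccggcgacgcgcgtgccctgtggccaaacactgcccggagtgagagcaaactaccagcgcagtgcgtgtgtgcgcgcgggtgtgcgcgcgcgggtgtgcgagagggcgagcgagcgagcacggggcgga
Per3: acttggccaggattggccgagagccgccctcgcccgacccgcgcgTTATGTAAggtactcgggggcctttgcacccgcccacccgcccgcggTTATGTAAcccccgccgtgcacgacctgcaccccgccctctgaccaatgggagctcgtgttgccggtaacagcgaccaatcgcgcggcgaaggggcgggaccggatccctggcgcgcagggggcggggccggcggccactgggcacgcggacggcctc

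Of the enzymes that make NAD, 2 that are well expressed in liver were higher in DJ526 without overlap. Nampt, the rate-limiting enzyme of the salvage route and itself a clock target, had 1.59, 1.06 and 1.26 in DJ and 1.65, 2.14 and 1.97 in DJ526 (log2 difference 0.62, standard error 0.15, limma adjusted p = 0.235). Nmrk1, a nicotinamide riboside kinase, had -0.26, -0.66 and -0.30 and -0.00011, 0.45 and 0.37 (log2 difference 0.68, standard error 0.196, limma adjusted p = 0.331). The Ctrl and RS mice lay at 1.83 to 2.11 and 1.87 to 2.01 for Nampt and at 0.053 to 0.74 and 0.39 to 0.83 for Nmrk1, so that for both genes the 3 DJ mice were the lowest of the 12. Of the whole list of sirtuins and NAD metabolism, 4 of 25 measured members did not overlap with DJ526 higher and 1 with DJ526 lower, and the median log2 difference was 0.035. The other higher members were dim, Nmrk2 (0.38) and Nmnat2, which was not well above background on any of the 6 arrays. Of the 7 sirtuins, Sirt4 alone had no overlap, at -0.56, -0.44 and -0.50 in DJ and -0.71, -0.77 and -0.73 in DJ526, that is, lower in DJ526. Sirt1, the sirtuin most often named as a target of resveratrol, had 0.28, -0.11 and -0.12 and 0.24, 0.052 and 0.13, with overlap. Among the 14 subunits and upstream kinases of AMPK only Camkk2 had no overlap (-0.32).

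**Figure D2:**
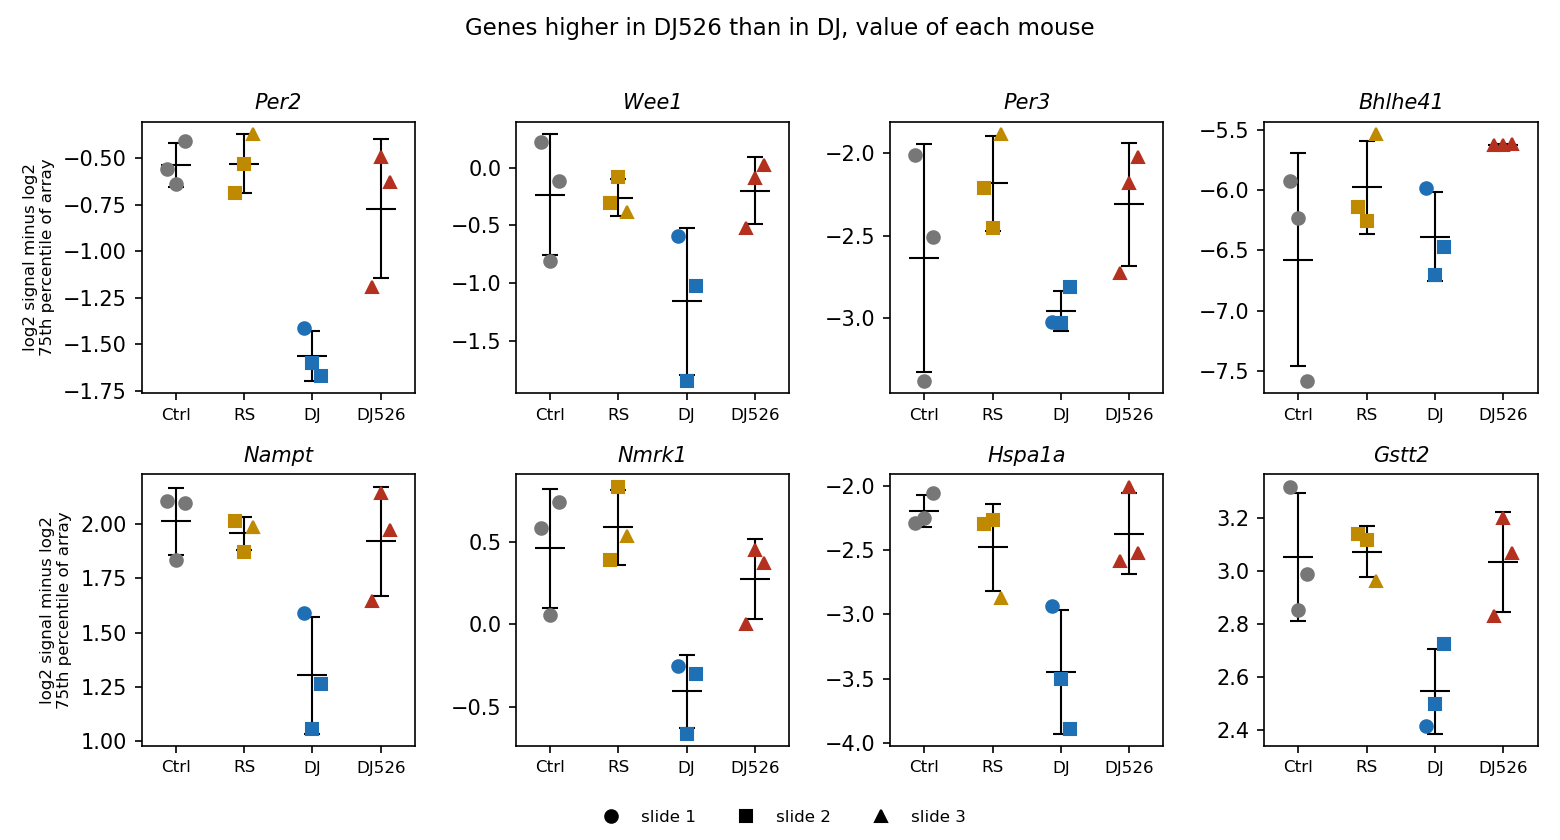
Level of 8 genes in each of the 12 mice (log2 processed signal, with 0 at the 75th percentile of an array). Points are mice, their shape gives the slide, and the bar and whiskers are the mean and SD of 3 mice. In the panels of Per2, Nampt, Nmrk1, Hspa1a and Gstt2 the 3 DJ points are the lowest of the 12.

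Heat shock proteins, the chaperones that cells make under protein stress, lay on both sides. Of the list, 4 of 25 measured members did not overlap with DJ526 higher and 1 with DJ526 lower, and the median log2 difference was 0.043. Hspa1a, the inducible chaperone of the Hsp70 family, whose near-identical neighbour Hspa1b its probe may also read, had -2.94, -3.50 and -3.90 in DJ and -2.58, -2.01 and -2.53 in DJ526 (log2 difference 1.07, standard error 0.254, limma adjusted p = 0.223). The Ctrl and RS mice had -2.29 to -2.05 and -2.87 to -2.27, all above the 3 DJ mice. Hspa2 differed by 0.67, the small chaperone Hspb1 by 0.43 and the co-chaperone Dnajb1 by 0.38, each without overlap, while the regulator Hsf1 differed by -0.13 with overlap. The windows of Hspa1a (chr17:34972157-34972406, minus strand) and Hspb1 (chr5:135887669-135887918, plus strand) are shown for the core of the heat shock element (GAANNTTC, both strands searched, in capitals), which 8 of 19 heat shock genes with a window and 6.69% of all windows hold. Here too a gene was counted where any of its windows held the core, unlike the share of windows.
Hspa1a: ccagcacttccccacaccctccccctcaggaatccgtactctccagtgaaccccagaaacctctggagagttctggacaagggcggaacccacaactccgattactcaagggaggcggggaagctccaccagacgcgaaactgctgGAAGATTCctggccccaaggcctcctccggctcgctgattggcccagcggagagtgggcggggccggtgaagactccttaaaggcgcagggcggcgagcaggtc
Hspb1: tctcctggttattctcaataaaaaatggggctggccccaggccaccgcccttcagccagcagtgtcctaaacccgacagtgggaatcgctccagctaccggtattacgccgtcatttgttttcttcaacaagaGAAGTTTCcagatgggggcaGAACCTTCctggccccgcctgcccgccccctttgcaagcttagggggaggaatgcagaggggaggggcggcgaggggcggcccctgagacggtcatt

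Glutathione transferases and UDP-glucuronosyltransferases, which conjugate foreign compounds, had a median above 0. Of this list, 4 of 31 measured members did not overlap with DJ526 higher and 1 with DJ526 lower, close to the shares over all genes (11.1% and 6.6%), and the median log2 difference was 0.12, with 26 of 31 above 0. Gstt2 had 2.42, 2.50 and 2.73 in DJ and 2.83, 3.20 and 3.07 in DJ526 (log2 difference 0.49, standard error 0.134, limma adjusted p = 0.305), and Ugt2b1 had 1.40, 1.29 and 0.79 and 1.83, 1.61 and 1.67 (0.54). Gsta4, which conjugates lipid aldehydes, had 0.91, 0.76 and -0.43 and 1.13, 1.22 and 1.33 (0.82), and without DJ replicate 3 the difference was 0.39. Ugt2b5 differed by 0.21 without overlap. Gsta2 had a larger difference, 0.87, but its groups overlapped.

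Lists of the interferon response and of inflammation had medians below 0. Of the interferon-stimulated genes, 0 of 37 measured members did not overlap with DJ526 higher and 5 with DJ526 lower, and the median log2 difference was -0.25, with 33 of 37 below 0. Ifi44 had -1.14, -0.60 and -0.086 in DJ and -1.30, -1.33 and -1.47 in DJ526 (log2 difference -0.75, standard error 0.272, limma adjusted p = 0.438; -0.49 without DJ replicate 3), and Cxcl9, a chemokine that draws T cells, had 0.94, 0.90 and 1.09 and 0.81, 0.36 and 0.084 (-0.56). Ifi47 and Zbp1 differed by -0.52 and -0.53. With the slide as a block the list median became 0.12 and Cxcl9 and Zbp1 changed sign, and under the other scalings it stayed between -0.30 and -0.19. Of the acute-phase proteins, 0 of 29 measured members did not overlap with DJ526 higher and 7 with DJ526 lower, and the median log2 difference was -0.19. Among them Lbp, which binds bacterial lipopolysaccharide, had 2.78, 2.67 and 3.23 in DJ and 2.59, 2.02 and 2.55 in DJ526 (-0.51, and -0.32 without DJ526 replicate 2), Saa4 differed by -0.51, haptoglobin (Hp) by -0.31 and fibrinogen beta (Fgb) by -0.31. Hp and Fgb are bright, with levels over 6, where 19.6% of all probes were lower in DJ526 without overlap and 1.07% higher. Lcn2 had the largest difference of the acute-phase list, -1.15, but the groups overlapped, and only DJ replicate 3, at 4.01, lay above all DJ526 mice.

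Trem2, a receptor of lipid-associated macrophages, was the single member of the macrophage list without overlap, at -0.11, -0.44 and 0.81 in DJ and -0.92, -1.23 and -1.32 in DJ526 (log2 difference -1.25, standard error 0.379, limma adjusted p = 0.357). The summed signal of the 20 macrophage markers overlapped, 114 to 158 in DJ and 112 to 155 in DJ526, and so did the sums of the neutrophil (81.2 to 91.6 and 86.1 to 97.4), lymphocyte (554 to 617 and 555 to 577), erythroid (375 to 632 and 393 to 784) and stellate cell markers (152 to 176 and 149 to 156). In whole liver, fewer cells of a type and less RNA per cell cannot be told apart.

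Of the list of antigen presentation and lymphocyte markers, 4 of 30 measured members did not overlap with DJ526 higher and 1 with DJ526 lower, close to the shares over all genes (11.1% and 6.6%). The higher members were Klrb1c, the NK1.1 antigen of natural killer cells (0.32), Cxcr6, a chemokine receptor of liver-resident lymphocytes (0.40), Nkg7, a protein of cytotoxic granules (0.17), and Ncr1, the activating receptor NKp46, which was well above background on none of the DJ arrays. The second probe of Nkg7 differed by -0.055, with overlap, and with the median pixel after normexp the difference of Klrb1c had the opposite sign. The lower member was B2m, the light chain of MHC class I (-0.074).

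**Figure D3:**
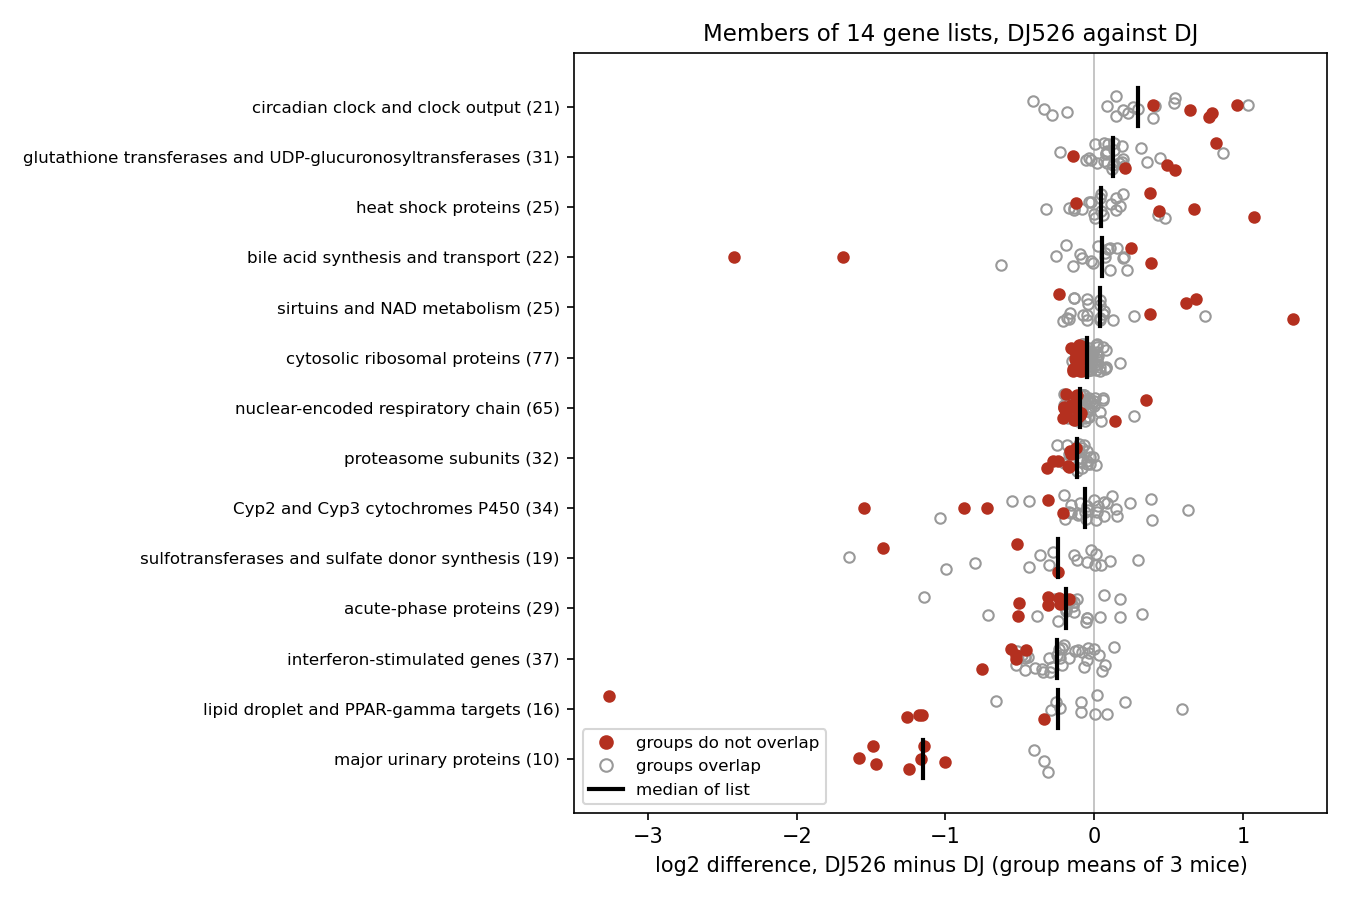
Log2 difference (DJ526 mean minus DJ mean, 3 mice each) of the members of 14 gene lists, with the number of measured members in brackets. Each point is a gene, filled where the 3 DJ526 and the 3 DJ values do not overlap, and the black bar is the median of the list. The major urinary proteins lie farthest to the left, with a median of -1.15, and the clock genes farthest to the right, with 0.30.

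Several lists of abundant transcripts lay slightly below 0. Of the 32 proteasome subunits, 31 were below 0 and 8 did not overlap, with a median of -0.12; Psma5, a subunit of the core particle, had 3.69, 3.86 and 3.95 in DJ and 3.52, 3.50 and 3.52 in DJ526 (log2 difference -0.32, standard error 0.0698, limma adjusted p = 0.185). Of the 65 nuclear-encoded genes of the respiratory chain, 57 were below 0, 16 did not overlap with DJ526 lower and 2 with DJ526 higher (median -0.096), among the lower ones Ndufv3 (-0.21) and Ndufb9 (-0.20) of complex I. Of the 77 cytosolic ribosomal proteins 59 were below 0 and 19 were lower without overlap (median -0.052). Of the 14 hepatocyte markers 4 were, Alb (-0.29), Apoa2 (-0.33), Fgb and Serpina1a (-0.18). Differences of this size went with the level of the signal across the whole array. Among the 837 probes with a mean level over 6, 19.6% did not overlap with DJ526 lower and 1.07% with DJ526 higher, and their median was -0.063. Among the 6291 probes with a level between -6 and -4 the shares were 5.56% lower and 21.4% higher, with a median of 0.165. After quantile normalization the median of the hepatocyte markers was 0.023, that of the ribosomal proteins 0.0015, that of the respiratory chain -0.045 and that of the proteasome -0.078, and Alb and Serpina1a changed sign.

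**Figure D4:**
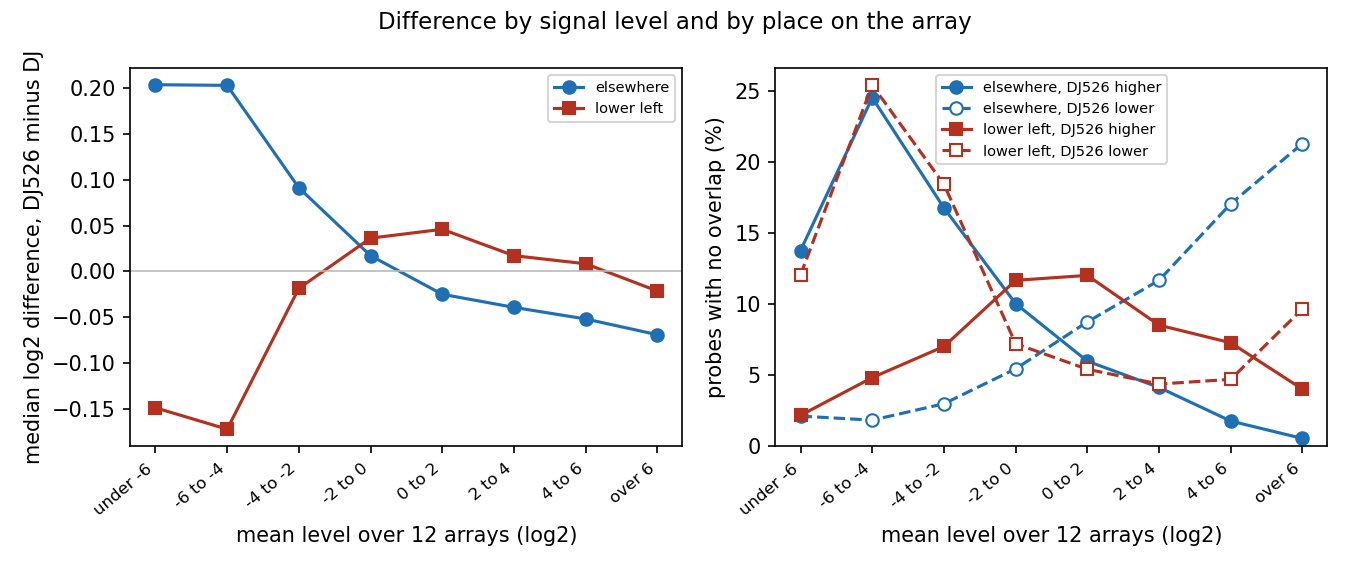
Left, median log2 difference (DJ526 minus DJ) of probes by their mean level over the 12 arrays, for the region at the lower left of the array and the rest. Right, percentage of probes whose 3 DJ526 and 3 DJ values do not overlap, by direction. Dim probes are higher in DJ526 over most of the array and lower at its lower left, and bright probes over the rest of the array are slightly lower.

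All 4 called probes are dim and stand at the lower left of the array (rows over 400, columns up to 53), bounds that were drawn after the values were seen. Olfr638, an olfactory receptor gene, had -2.86, -2.83 and -3.21 in DJ and -6.05, -6.46 and -5.28 in DJ526 (log2 difference -2.96, standard error 0.28, limma adjusted p = 0.0169), and Olfr1349 had -3.07, -2.68 and -3.10 and -5.27, -5.46 and -4.97 (adjusted p = 0.0231). Gpr31b, a G protein-coupled receptor gene whose probe carries the accession that the study's primers give for Gpr31c, was well above background on none of the DJ526 arrays and was at least 3.07-fold higher in DJ (limma adjusted p = 0.0231), with levels of -5.22, -5.74 and -5.70 in DJ and -5.15, -5.61 and -5.79 in Ctrl. By qRT-PCR the paper reports a lower level of Gpr31c in DJ than in DJ526, the opposite direction. The fourth probe, A_55_P2180957, has no gene name and was at least 1.74-fold higher in DJ (adjusted p = 0.0232), where 2 of the 3 arrays had it well above background. These bounds set the DJ mean against the lowest signal that was well above background on each DJ526 array. That part of the array holds 15.1% of the probes and the 25 probes with the smallest p. In it, probes with a level between -6 and -4 had a median difference of -0.17, against 0.20 elsewhere. Without that part, which also takes out the 4 probes, limma called 0 of 33464 (smallest adjusted p = 0.539, 2978 at an unadjusted p under 0.05). Among genes well above background on all 6 arrays, a further 6 of the 10 lowest, Gm21944 (-2.48), Taar4 (-1.97), Olfr94 (-1.97), Olfr671 (-1.87), Gm15413 (-1.85) and Nog (-1.83), lie there too, and the remaining 2 of the 10 lowest are Cyp8b1 and Cyp3a41b.

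The 10 highest genes in DJ526, taken in the same way, were likewise dim or had DJ values that split by slide. Slc49a4, a lysosomal transporter, had 0.38, -2.61 and -2.15 in DJ and 0.51, 0.86 and 0.96 in DJ526 (log2 difference 2.24, standard error 0.596, limma adjusted p = 0.282). DJ replicate 1, on slide 1, was less than 0.5 from a DJ526 mouse, whereas DJ replicates 2 and 3, on slide 2, were over 2 log2 units lower, as were RS replicates 1 and 2 of that slide (-2.77 and -2.41) and RS replicate 3 (-2.02). The olfactory receptor Olfr612 had -3.95, -6.03 and -5.90 in DJ and -3.11, -2.95 and -2.79 in DJ526, with -6.11, -5.95 and -4.73 in RS and -3.60, -3.49 and -4.87 in Ctrl. Olfr681 had -2.62, -4.72 and -4.85 and -2.31, -1.92 and -1.89, and Olfr362 and Vmn1r227 showed the same order of arrays. Pde5a, a phosphodiesterase that degrades cyclic GMP, overlapped, at 0.98, -3.53 and -2.57 in DJ and 0.98, 0.95 and 1.08 in DJ526. RS replicate 3, on slide 3 with the DJ526 arrays, lay below every DJ526 mouse for Slc49a4 (-2.02), Pde5a (-2.14), Olfr612 (-4.73) and Olfr681 (-3.73). No slide held both rice diets, so the part of the slide in the differences between DJ526 and DJ cannot be told apart from diet. The other genes of the 10 were Tas1r2 (2.03), Olfr170 (1.56), Gpha2, 3930402G23Rik (1.49) and Trim43b (1.39), with DJ levels of -2.30 or lower. Of the 1071 olfactory receptor genes measured, 216 did not overlap with DJ526 higher and 48 with DJ526 lower, beside 11.1% and 6.6% of all genes. Of the 271 receptors well above background on all 6 arrays, 114 and 23 did not overlap. Among all probes the shares depended on the level. Between -6 and -4, the range with the largest share of higher probes, they were 21.4% and 5.56%. Under -6 the share of higher probes was smaller. The part of the level in the receptor counts was not tested. The median of the 1071 genes was 0.20, and it had the opposite sign with the median pixel after normexp (-0.12) and with the slide as a block (-0.38).

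**Figure D5:**
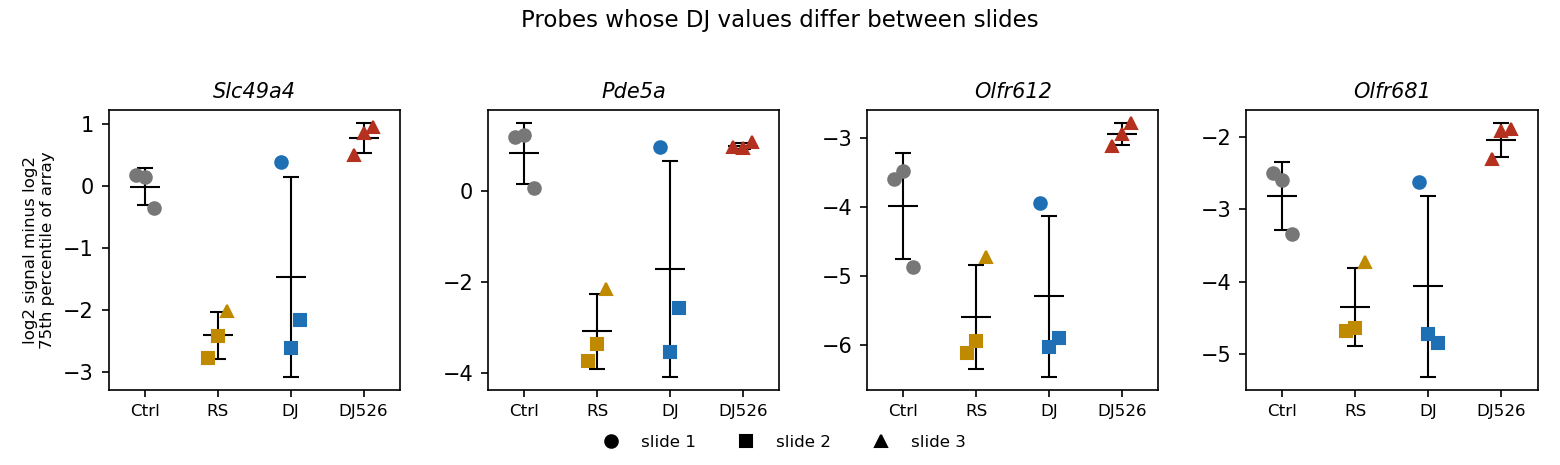
Level of 4 genes in each of the 12 mice (log2 processed signal, with 0 at the 75th percentile of an array). Point shape gives the slide, and the bar and whiskers are the mean and SD of 3 mice. DJ replicate 1, on slide 1, lies with the Ctrl mice, and DJ replicates 2 and 3, on slide 2, lie with the RS mice of that slide. RS replicate 3, on slide 3, lies below the DJ526 mice of the same slide.

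Of the 12 genes that the study followed by qRT-PCR, which were chosen on these arrays, 3 did not overlap with DJ526 higher (Slc49a4, Spock1 and Duoxa1) and 3 with DJ526 lower (Gpr31b, Csf3 and Sub1). Csf3, a growth factor for granulocytes, was well above background on none of the DJ526 arrays and was at least 2.37-fold higher in DJ (limma adjusted p = 0.24). The Csf3 probe also stands at the lower left of the array. There 12.1% of the probes with a level under -6 were lower in DJ526 without overlap and 2.19% higher. By qRT-PCR the paper reports a lower level of Csf3 in DJ than in DJ526, the opposite direction. Sub1, a transcriptional coactivator, had 4.75, 4.70 and 4.58 in DJ and 4.43, 4.52 and 4.57 in DJ526. Spock1 differed by 0.44 at its brightest probe and by -2.60 at a dim one. The sulfotransferase Sult2a1, which sulfates bile acids and steroids, overlapped, with 6.73, 6.41 and 1.20 in DJ and 4.08, 6.15 and 3.70 in DJ526, DJ replicate 3 being the lowest. The other overlapping genes of the 12 were Pde5a, Sult2a4 (0.0093), Sult2a6 (-0.11), Ap3b2 and Pnoc. DJ replicate 3 was the lowest of the 6 mice for Sult2a4 (-0.85) and Sult2a6 (2.71) as well. The paper reports Sult2a4, Sult2a1, Sub1 and Sult2a6 as lower in DJ526 than in DJ, by qRT-PCR and by array ratios to Ctrl. Its array ratios are of averaged intensities, whereas the differences here are of mean log2 values. Ap3b2 was well above background on 1 of the 3 DJ arrays and Pnoc on none of the 6, so that no difference is given for them. Of the list of sulfotransferases, 0 of 19 measured members did not overlap with DJ526 higher and 3 with DJ526 lower, and the median log2 difference was -0.25, with Sult2a7 at -0.43, -0.25 and 1.21 and -0.67, -1.46 and -1.61 (-1.42, and -0.91 without DJ replicate 3) and Sult1b1, which sulfates phenols and thyroid hormones, at 2.03, 2.01 and 1.91 and 1.75, 1.74 and 1.71 (-0.25).

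The main routes of lipid and sugar metabolism showed few separate genes. None of the 22 genes of de novo lipogenesis and none of the 24 of cholesterol synthesis was without overlap between the groups (medians -0.028 and -0.0032), and Scd1, the stearoyl-CoA desaturase, ranged over 6.40 to 7.05 in DJ and 6.77 to 7.81 in DJ526. These medians were -0.83 and -0.83 with the slide as a block, where Ctrl and RS mice on the same slides carry the estimate. Of the 31 genes of fatty acid oxidation, Ehhadh (0.30) was higher and Acadvl (-0.12) lower, and of the 25 genes of sugar handling Ppp1r3c, a glycogen-targeting subunit, was lower (-0.39). Of the 19 genes of insulin signalling and FOXO targets, 3 were higher without overlap and 0 lower, beside 11.1% and 6.6% of all genes. The 3 were the insulin receptor Insr (0.28), Foxo1 (0.30) and Foxo3 (0.43). The median of the list was 0.033, with 7 of 19 below 0. Among pericentral genes the ammonium transporter Rhbg had -0.053, 0.75 and 0.93 in DJ and -0.32, -0.33 and -0.69 in DJ526 (log2 difference -0.99, standard error 0.258, limma adjusted p = 0.262), and of the 17 periportal genes Asl was higher (0.22). Of the antioxidant enzymes, Gpx1 (-0.29) and Sod1 (-0.18) were among 4 of 20 that were lower, and of the 32 complement and coagulation genes 4 were, with C4b at -0.21.

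Of the 28 cell cycle genes 23 were above 0 and 2 did not overlap, Pcna of the replication fork (0.30) and the thymidylate synthase Tyms (0.35), both higher in DJ526 (median 0.20). Cdkn1a, the inhibitor p21 and a target of p53 and of glucocorticoids, had -1.16 to -0.58 in DJ and -1.27, -1.49 and -3.16 in DJ526 (log2 difference -1.06, standard error 0.813, limma adjusted p = 0.683), and without DJ526 replicate 3 the difference was -0.46. A dimmer probe of Cdkn1a, well above background on all 6 arrays, differed by 0.94, without overlap and with DJ526 higher. Of the 22 genes of lipoprotein handling 3 were lower without overlap, Apoa2, Apoe (-0.16) and the lipase Lpl (-0.52), and 1, Mttp, which loads lipid onto nascent particles, was higher (0.12). In the list of regulators and targets of the Nrf2 and aryl hydrocarbon receptor pathways, the target Osgin1 (0.56) and the regulator Arnt (0.32) were higher. Both subunits of glutamate-cysteine ligase, Gclc (-0.29) and Gclm (-0.22), were lower. In the unfolded protein response the chaperones Creld2 (-0.56) and Pdia4 (-0.33) were lower and Dnajc3 higher (0.25). The hepatokines Lect2 (-0.20) and Inhbc (-0.27) were lower, and the endothelial genes Cdh5 (0.20) and Clec4g (0.31), a lectin of the liver sinusoid, higher.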

How the data were processed

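Liver RNA was hybridised in 1 colour to Agilent 4x44K mouse arrays, 1 mouse an array, and the authors deposited the scanner output of Feature Extraction, whose processed signal is an intensity after background subtraction, with a table of the same intensity values brought to a common mean. Control spots and outlier spots were left out, spots of a probe were averaged, and log2 values were centred on the 75th percentile of each array. Of 39429 probes 27511 took a gene name from RefSeq, 27508 through their accession and 3 through the accessions of the study's primers. limma 3.58.1 in R 4.3.3 fitted 1 mean a diet over the 12 arrays with a variance trend (residual degrees of freedom: 8), with Benjamini-Hochberg adjustment over the 39429 probes and a threshold of 0.05. The 3 animals of a diet are separate mice. The fit was tested on simulated data. Alternatives in background correction, scaling, filters, slide, replicate number, position on the array, test and mice were tried.

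Same-numbered mice deviated together only weakly (correlations of 0.291, 0.163 and 0.168), and DJ526 replicate 3 was closer to DJ replicate 2 (0.259). The labels do not say that the numbers of the titles are pairs. The main fit therefore left the numbers out, and the number as a block was an alternative. Named were the called probes, the 10 highest and 10 lowest genes well above background on all 6 arrays, without overlap and with an unadjusted p under 0.05, up to 4 members a list by the same background limit and without overlap and the 12 genes of the qRT-PCR. Arntl, Dbp, Nr1d1, Usp2, Lcn2, Ncr1, the Mup family and other members given with overlap or below that limit were chosen after their values were seen. The comparison and the lists were chosen with earlier results of these data known.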

Additional observations from a re-analysis of the deposited data

How the results depend on the processing

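The count of called probes moved with most choices. It was 1 with the median pixel after normexp, 27 after quantile normalization, 85 after cyclic loess, 8 among probes well above background on all 6 arrays, 14 among those so in at least 1 diet, 11 without a variance trend, 2 with the slide as a random block, 0 with only the 6 arrays (smallest adjusted p = 0.0873), 0 with the replicate number as a block and 0 with the lower left part left out, a choice made after the data were seen. The methods' t-test called 1 after Benjamini-Hochberg adjustment (4265 before), the permutation statistic SAM 63 and the Z ratio criterion 1491. With the slide as a fixed block 4 probes were called, none of them among the 4 of the report, and all in the lower left part. Leaving out 1 mouse gave 0 to 107 calls. Of the 85 calls after loess 79, and of the 107 calls without RS replicate 3 81, lay in the lower left part, and both sets held the 4 calls of the report. The count of probes without overlap was 7256 to 15069 when 1 mouse was left out (at least 9843 where it was a DJ or DJ526 mouse), which needs fewer values to be apart, and within 1.5 times of 7256 otherwise. The replicate number as a block changed the sign of no named difference.

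Named differences that changed sign did so mostly with the slide as a block, which rests on the Ctrl and RS mice: Abcg8 (-0.031), Acadvl (0.023), Arntl (0.51), Asl (-0.066), Ciart (-0.51), Creld2 (0.35), Cxcl9 (0.26), Cyp2e1 (0.011), Cyp4a12a (-0.40), Duoxa1 (-0.52), Ehhadh (-0.095), Foxo1 (-0.046), Gclc (0.34), Gclm (0.042), Gpx1 (0.15), Hsf1 (0.072), Inhbc (0.15), Lep (-0.36), Lpl (0.015), Npas2 (0.54), Nr1d1 (-0.29), Plin4 (0.035), Pnoc (-0.47), Pparg (0.020), Scd1 (-0.87), Spock1 (-0.045), Sult2a1 (1.51), Sult2a6 (1.09), Trim43b (-0.11) and Zbp1 (0.52). With the median pixel after normexp these were Ap3b2 (-0.047), Bhlhe41 (-0.037), Klrb1c (-0.0064), Ncr1 (-0.081), Ndufb9 (0.029), Nmnat2 (-0.077), Nmrk2 (-0.15), Pnoc (-0.17), Spock1 (-0.0014), Sult2a4 (-0.018) and Sult2a6 (0.076). After quantile normalization they were Alb (0.022), Apoe (0.036) and Serpina1a (0.025), and in the deposited table Cyp2b10 (0.0040). Centring by position changed Cyp3a13 (-0.069), the slide as a random block Cyp3a13 (-0.012), and the mean of all probes of a gene Cyp3a13 (-0.070) and Igf1 (0.037). Over the mice left out 1 at a time, the sign changed for Arntl (-1.43 to 0.62), Ciart (-0.059 to 0.96), Cry1 (-0.22 to 1.03), Cyp2b10 (-0.15 to 0.041), Cyp3a13 (-0.16 to 0.24), Cyp3a25 (-0.045 to 0.35), Cyp7a1 (-0.23 to 0.75), Nr1d1 (-0.51 to 0.80), Pparg (-0.16 to 0.014), Sult2a1 (-1.93 to 0.84), Sult2a4 (-1.99 to 1.08) and Sult2a6 (-1.42 to 0.59). Without changing sign, a difference moved by over 1.5 times without DJ replicate 3 for Lpl (-0.34), Plin4 (-0.22), Tas1r2 (1.34), Tyms (0.21) and Ugt2b1 (0.36), without DJ replicate 1 for Clec4g (0.13), Gclc (-0.16) and Sod1 (-0.11), without DJ replicate 2 for Tef (0.25), without DJ526 replicate 3 for Dnajc3 (0.15), Plin4 (-0.21), Tef (0.25) and Ugt2b5 (0.061), without DJ526 replicate 2 for Pdia4 (-0.16), and as the report gives for others. The cause was not tested for any of these. Ap3b2, Ncr1, Nmnat2 and Pnoc were well above background on at most 1 of the 3 DJ arrays. The number of arrays and the absence of a slide with both diets limit what can be read from small differences.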
